A study of Mus musculus with 12 samples.

Results

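The growth hormone receptor, STAT5 and IGF1 axis was described in mouse liver through 10 genes, chosen by name and matched to the rows of the count table by Ensembl transcript identifier: Ghr, Jak2, Stat5a, Stat5b, Igf1, Igfals, Socs2, Cish, Bcl6 and Onecut1. All 10 were found among the 13267 genes of the table, and all 10 passed the filter on low values. The livers came from C57BL/6 mice with obesity and hepatic steatosis induced by a high-fat diet. In 6 mice 4-hydroxyphenylacetic acid (4-HPAA), a phenolic acid that gut bacteria can form from dietary polyphenols, was given under the skin for 6 weeks, and 6 control mice received the scaffold alone for the same time. Livers were flushed and flash frozen, and their messenger RNA was sequenced. The labels give neither the age nor the sex of the mice. The Y-linked gene Ddx3y was detected in all 12 libraries, at 453 to 2092 normalised read counts, as were Eif2s3y at 939 to 1801, Kdm5d at 366 to 595 and Uty at 116 to 459. Transcripts of the Y chromosome, which only males carry, were thus present in every liver.

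Growth hormone is secreted by the pituitary, in mice in pulses in males and more evenly in females. In hepatocytes it binds its receptor, GHR, which activates the bound kinase JAK2, and JAK2 phosphorylates the transcription factors STAT5A and STAT5B. STAT5 drives Igf1, whose product is the main circulating growth factor downstream of growth hormone, and Igfals, whose product holds IGF1 in a long-lived complex in plasma. It also drives Socs2 and Cish, inhibitors that close the signal down. BCL6 is a repressor that binds much the same DNA sites as STAT5, and Bcl6 is itself repressed by growth hormone. Onecut1 encodes HNF6, a hepatocyte transcription factor responsive to growth hormone. The pattern of growth hormone secretion sets much of the difference between male and female mouse liver.

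Values are the authors' normalised read counts, which they had divided by a factor for each library and rounded to whole numbers. They summed to 22869813 to 25255447 per library. Differences are given as log2 of the value plus 1, 4-HPAA minus control, with their standard error. They come from limma fitted over the 12720 genes with at least 10 in at least 6 libraries. In that fit 0 of 12720 genes (0%) passed a Benjamini-Hochberg adjusted p of 0.05, and 4 (0.0314%) passed 0.1. Without 4-HPAA replicate 4, 193 genes passed 0.05 in limma, the most with any 1 library left out. At an unadjusted p under 0.05, 924 genes (7.26%) were higher and 962 genes (7.56%) were lower. The exact permutation test called 0 genes after adjustment and 1825 genes (14.3%) at an unadjusted p under 0.05. With 924 splits its smallest possible p is 0.00216. No small set of the 12720 genes could therefore pass adjustment in that test, however far apart its groups lay. Its 0 is not a separate check on the limma count. The labels name no batches, and the p-values cover only the spread among the 12 libraries, which may be partly technical. 4-HPAA replicate 3 stood apart: its median correlation with the other libraries was 0.969, against 0.978 to 0.986 for the other 11.

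The STAT5 recognition core TTCNNNGAA, which reads the same on both strands and is also bound by BCL6, was searched for in promoter windows of 300 bases, running from 250 bases before to 50 after each annotated start (RefSeq, build GRCm38.p6). The core was present in 8.30% of all 32851 windows, and 0.457% held it at least 2 times. Of the 15 windows of 9 members, 5 held it, and they belonged to Cish, Bcl6 and Igfals. The windows of Ghr, Jak2, Stat5a, Stat5b, Igf1 and Onecut1 did not hold these letters. Socs2 had no window in the set used and was not searched. A match is a description of the sequence and does not show binding. The 3 windows below are shown because they belong to a feedback inhibitor, a repressor and a secreted product of the axis, with matches in capitals.
Cish: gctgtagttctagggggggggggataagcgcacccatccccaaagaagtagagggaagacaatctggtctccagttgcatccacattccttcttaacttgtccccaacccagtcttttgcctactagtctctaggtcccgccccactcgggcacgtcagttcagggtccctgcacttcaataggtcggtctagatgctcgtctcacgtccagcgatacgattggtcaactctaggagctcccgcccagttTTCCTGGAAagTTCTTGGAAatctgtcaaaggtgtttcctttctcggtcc
Bcl6: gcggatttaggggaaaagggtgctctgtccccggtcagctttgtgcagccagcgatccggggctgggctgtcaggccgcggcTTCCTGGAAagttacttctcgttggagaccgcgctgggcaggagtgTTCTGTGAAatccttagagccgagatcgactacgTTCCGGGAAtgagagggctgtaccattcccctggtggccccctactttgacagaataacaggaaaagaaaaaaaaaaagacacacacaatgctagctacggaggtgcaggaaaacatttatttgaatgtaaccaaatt
Igfals: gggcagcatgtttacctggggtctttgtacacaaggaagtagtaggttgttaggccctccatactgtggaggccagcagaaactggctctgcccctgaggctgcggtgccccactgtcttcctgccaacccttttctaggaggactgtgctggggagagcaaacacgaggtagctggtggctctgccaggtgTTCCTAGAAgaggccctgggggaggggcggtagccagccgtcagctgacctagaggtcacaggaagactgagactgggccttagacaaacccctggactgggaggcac
The Cish window, on the plus strand at chr9:107296409-107296708, held 2 matches, which begin at bases 251 and 262 of the window. The Bcl6 window, on the minus strand at chr16:23981234-23981533, belongs to the downstream of its starts and held 3 matches, a number reached by 0.0335% of all windows. The Igfals window, on the plus strand at chr17:24877981-24878280, held 1 match at base 193. One further window of each of Bcl6 and Igfals held 1 match and is not printed.

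Set side by side, the 10 genes showed no adjusted difference between 4-HPAA and control livers. Of the 10, 4 had positive and 6 negative differences, with a median of -0.02, while over all genes tested 49.8% had positive differences and the median was -0.000922. Only Igfals reached an unadjusted p under 0.05, on the higher side, and 0 members did so on the lower side. The groups overlapped for all 10 members, while they did not overlap for 0.660% of all genes. A count of 1 in 10 is close to the background share. Igfals no longer reached that unadjusted threshold under 12 of 21 alternatives, among them 2 other scalings, the exact permutation test and the removal of any of 4-HPAA replicates 1 to 5 or of control replicates 2, 4 or 5.

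**Figure D1:**
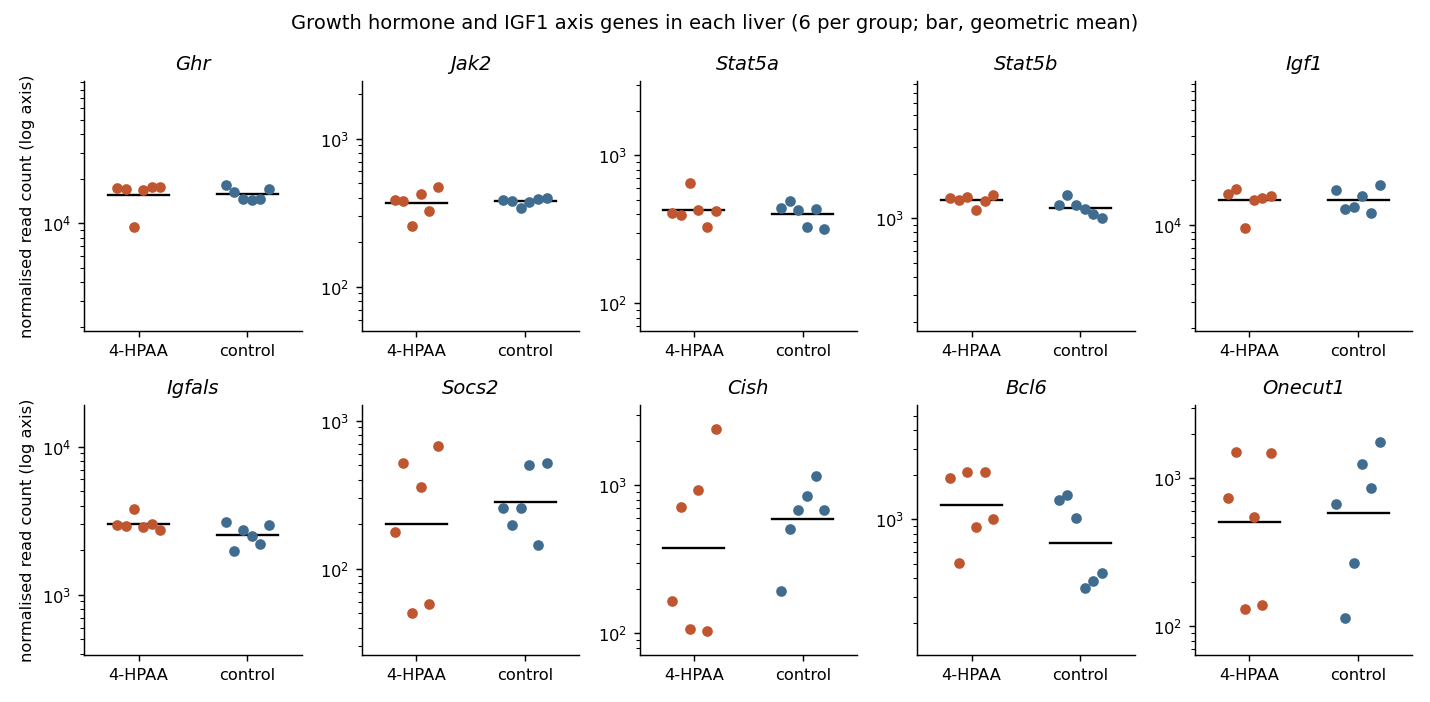
Normalised read count of each of the 10 genes in each liver, on log axes that span the same ratio in every panel; points are livers (6 in 4-HPAA on the left, 6 in control on the right), bars are geometric means. Ghr, Jak2, Stat5a, Stat5b, Igf1 and Igfals span 1.43 to 2.02 times between the lowest and the highest of the 12 livers, while Socs2, Cish, Bcl6 and Onecut1 span 6.12 to 23.1 times.

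Ghr (ENSMUST00000161770, chr15:3317760-3583492) is the cell-surface receptor through which growth hormone acts. In 4-HPAA livers its lowest, median and highest values were 9434, 17236.5 and 17643. In control livers they were 14262, 15511.5 and 18030. Of the 4-HPAA livers, 5 lay within a narrow band from 16676 upward, in the upper part of the control range, and replicate 3 lay below every other liver of either group. Ghr averaged 15946.3 ± 3209 in 4-HPAA livers and 15802.2 ± 1532 in control livers (SD, n = 6 each). The difference was -0.01 ± 0.14 with a 95% interval of -0.32 to 0.29 (limma, adjusted p = 0.976). Without 4-HPAA replicate 3 the difference turned to 0.13 (limma, adjusted p = 0.333).

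Jak2 (ENSMUST00000065796, chr19:29251828-29313080), the kinase carried by the receptor, had a lowest, median and highest value of 258, 381.5 and 475 in 4-HPAA livers. In control livers these were 339, 381 and 400, so that the 4-HPAA livers spread to both sides of the control range. The difference was -0.04 ± 0.12, with a 95% interval of -0.30 to 0.23 (limma, adjusted p = 0.913). Without 4-HPAA replicate 3, again the lowest liver, it turned to 0.06 (limma, adjusted p = 0.737).

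The STAT5 proteins are encoded by neighbouring genes on chromosome 11. Stat5b (ENSMUST00000107358, chr11:100780731-100850724) is the form that carries most of the growth hormone signal in mouse liver. Its lowest, median and highest values were 1127, 1344 and 1440 in 4-HPAA livers and 1007, 1191 and 1433 in control livers. The 4-HPAA livers lay mostly in the upper part of the control range, 5 of 6 above the control mean. The difference was 0.17 ± 0.09, with a 95% interval of -0.03 to 0.36 (limma, unadjusted p = 0.0855, adjusted p = 0.408). Stat5a (ENSMUST00000133036, chr11:100859351-100885169), the closely related partner, ran from 326 to 645 in 4-HPAA livers and from 319 to 490 in control livers. Its difference was 0.09 ± 0.15 (limma, adjusted p = 0.834). Its 4-HPAA maximum was replicate 3, and without that library the difference turned to -0.03 (limma, adjusted p = 0.910). The Stat5a exons overlap those of Stat3 on the opposite strand, and the strand setting of the authors' counting was not given in the sources used here. Reads shared by the related Stat5a and Stat5b transcripts may also have been split or dropped by that counting.

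Igf1 (ENSMUST00000062862, chr10:87858265-87937042), the growth factor made by hepatocytes in response to growth hormone, was at a similar level in both groups. Its lowest, median and highest values were 9576, 15493.5 and 17564 in 4-HPAA livers, and 12034, 14539 and 18693 in control livers. The lowest liver of all was again 4-HPAA replicate 3, and the other 5 lay inside the control range. Igf1 averaged 14871.2 ± 2762 in 4-HPAA livers and 14981.5 ± 2686 in control livers (SD, n = 6 each). The difference was -0.02 ± 0.15, with a 95% interval of -0.33 to 0.30 (limma, adjusted p = 0.971). Without replicate 3 it turned to 0.11 (limma, adjusted p = 0.624).

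Igfals (ENSMUST00000234754, chr17:24865997-24882010) encodes the acid-labile subunit, which joins IGF1 and its binding protein in plasma. Its lowest, median and highest values were 2730, 2931 and 3791 in 4-HPAA livers and 1984, 2601.5 and 3083 in control livers. All 6 4-HPAA livers lay above the control mean, though the groups overlapped and the highest liver was 4-HPAA replicate 3. Igfals averaged 3041.2 ± 380.4 in 4-HPAA livers and 2575.7 ± 431.6 in control livers (SD, n = 6 each). The difference was 0.25 ± 0.11, with a 95% interval of 0.00 to 0.49 (limma, unadjusted p = 0.0475, adjusted p = 0.332). The exact permutation test, two-sided, gave an unadjusted p = 0.0779. Without 4-HPAA replicate 3 the difference was 0.18 (limma, unadjusted p = 0.0987, adjusted p = 0.337).

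**Figure D2:**
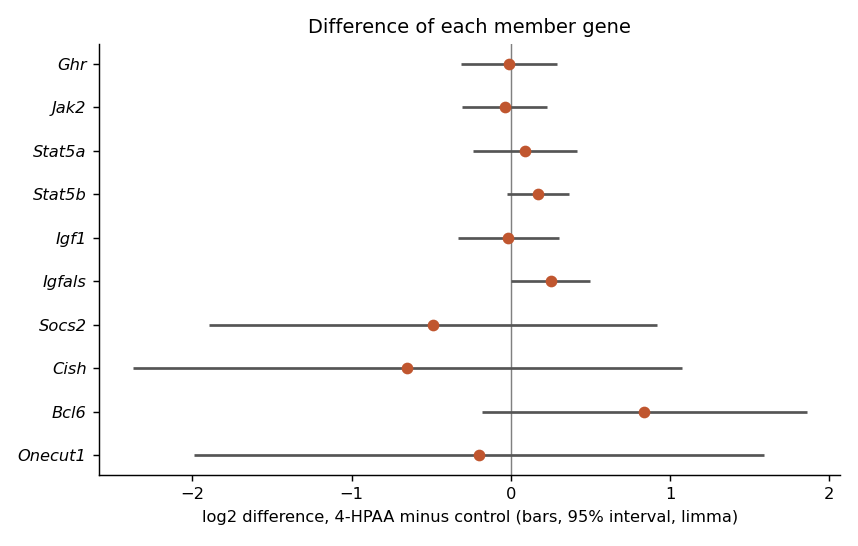
Log2 difference of each of the 10 genes, 4-HPAA minus control; points are limma estimates and bars their 95% intervals. The intervals of Ghr, Jak2, Stat5a, Stat5b, Igf1 and Igfals are narrow, that of Igfals alone lies above 0 with its lower bound at 0.00, and those of Socs2, Cish, Bcl6 and Onecut1 are wide and include 0.

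The feedback inhibitors and the 2 transcription factors downstream varied far more between livers than the receptor, kinase and growth factor did. Taking the SD of log2 values within groups, Socs2 (1.24), Cish (1.47), Onecut1 (1.52) and Bcl6 (0.90) each exceeded 98.8 to 99.8% of all genes tested. Among genes with a mean value between 0.5 and 2 times their own, they exceeded 99.5 to 99.9%. Ghr (0.27), Igf1 (0.28), Jak2 (0.22), Igfals (0.21) and Stat5a (0.29) exceeded 44.5 to 63.1% of all genes, and Stat5b (0.16) exceeded 24.5%. Among genes of like mean the shares were 78.9% for Stat5a, 78.0% for Igf1, 75.9% for Ghr, 67.0% for Igfals, 61.3% for Jak2 and 42.5% for Stat5b, so that 5 of these 6 also varied more than most genes of their level.

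Socs2 (ENSMUST00000135822, chr10:95385362-95417180), which binds the activated receptor and damps its signal, had a lowest, median and highest value of 50, 265 and 671 in 4-HPAA livers. In control livers these were 144, 257 and 515. The 4-HPAA livers reached beyond the controls at both ends, with replicates 3 and 5 at 50 and 58 and replicate 6 at 671. If a value of 50 stood for 50 reads, counting error alone would be about 14.1%, small beside this spread. The values are scaled, so the reads behind them are not known. The SD of log2 values was 1.59 in 4-HPAA livers and 0.73 in control livers. The difference was -0.49 ± 0.65, with a 95% interval of -1.89 to 0.92 (limma, adjusted p = 0.773). With 1 library left out it ranged from -0.84 without 4-HPAA replicate 6 to -0.0939 without 4-HPAA replicate 3, and it was -0.14 without 4-HPAA replicate 5.

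Cish (ENSMUST00000085102, chr9:107296026-107302784), a second inhibitor of the same family, spanned 104 to 2402 in 4-HPAA livers, with a median of 440. In control livers it spanned 194 to 1146, with a median of 682. The 4-HPAA livers formed a low set, with replicates 1, 3 and 5 at 166, 107 and 104, below every control liver, and a high set, with replicates 2, 4 and 6 at 714, 923 and 2402. The SD of log2 values was 1.88 in 4-HPAA livers and 0.88 in control livers, and whether the spreads differ was not tested. The difference was -0.65 ± 0.79 (limma, adjusted p = 0.748). It was -1.18 without 4-HPAA replicate 6, -0.29 without 4-HPAA replicate 3 and -0.28 without 4-HPAA replicate 5, so its size depends on single livers.

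Onecut1 (ENSMUST00000056006, chr9:74861921-74891781) had a lowest, median and highest value of 132, 641.5 and 1505 in 4-HPAA livers and 114, 765 and 1772 in control livers. It varied widely in both groups: 4-HPAA replicates 3 and 5, at 132 and 140, and control replicate 2, at 114, were more than 10 times below the highest livers. The difference was -0.20 ± 0.82 (limma, adjusted p = 0.933), and it turned to 0.19 without 4-HPAA replicate 3.

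Bcl6 (ENSMUST00000023151, chr16:23965052-23988852) had the largest positive difference of the members. Its lowest, median and highest values were 507, 1457 and 2104 in 4-HPAA livers, and 344, 727.5 and 1465 in control livers. In 4-HPAA livers, replicates 1, 3 and 5 lay at 1915, 2082 and 2104, above every control liver. In control livers, replicates 4, 5 and 6 lay at 344, 381 and 436, below every 4-HPAA liver, while replicates 1, 2 and 3 lay at 1350, 1465 and 1019. Bcl6 averaged 1416.2 ± 699 in 4-HPAA livers and 832.5 ± 510.4 in control livers (SD, n = 6 each). The difference was 0.84 ± 0.47, with a 95% interval of -0.18 to 1.86 (limma, unadjusted p = 0.0986, adjusted p = 0.430). Leaving out 1 library at a time gave 0.63 to 1.10.

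Some of the variable genes ran together or in opposite directions from liver to liver. The 3 4-HPAA livers with the lowest Cish were those with the highest Bcl6. For 7 pairs of members, log2 values were compared after each group's mean was removed, with two-sided permutation tests within groups and Benjamini-Hochberg adjustment over the 7 pairs. Over the 12 livers, Onecut1 and Bcl6 ran in opposite directions (Pearson r = -0.778, permutation p = 0.00656, adjusted 0.0281; Spearman rho = -0.776, permutation p = 0.00605, adjusted 0.0423). So did Bcl6 and Socs2 (r = -0.625, permutation p = 0.0306, adjusted 0.0428; rho = -0.594, permutation p = 0.0396, adjusted 0.0693). Socs2 and Cish ran together (r = 0.771, permutation p = 0.0262, adjusted 0.0428; rho = 0.699, permutation p = 0.0499, adjusted 0.0699), as did Socs2 and Igf1 (r = 0.676, permutation p = 0.00803, adjusted 0.0281; rho = 0.678, permutation p = 0.0174, adjusted 0.0427).

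Ghr and Igf1 also ran together (r = 0.826, permutation p = 0.0164, adjusted 0.0382; rho = 0.671, permutation p = 0.0183, adjusted 0.0427). Ghr with Igfals had r = -0.363 (permutation p = 0.173, adjusted 0.202; rho = 0.0420, permutation p = 0.912, adjusted 0.912), and Igf1 with Igfals had r = 0.0296 (permutation p = 0.925, adjusted 0.925; rho = 0.210, permutation p = 0.540, adjusted 0.630). When the 2 livers farthest from the median of the first gene were left out, none of the 7 pairs passed after adjustment, so the adjusted calls did not hold without them. A test on fewer livers also has less power, and whether those 2 livers in particular carry the calls was not tested. Over all livers, 5 pairs had passed by Pearson r, while Bcl6 with Socs2 and Socs2 with Cish had not passed by Spearman rho. All 5 kept their sign of r over the remaining 10 livers. The r values were then -0.694 for Onecut1 and Bcl6, -0.496 for Bcl6 and Socs2, 0.609 for Socs2 and Cish, 0.551 for Socs2 and Igf1, and 0.742 for Ghr and Igf1. For Igf1 and Igfals r was 0.694, and for Ghr and Igfals it turned to 0.448. Without 4-HPAA replicate 3 alone, r was 0.750 for Igf1 and Igfals and 0.551 for Ghr and Igf1, and again no pair passed (smallest adjusted p = 0.0869, permutation).

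**Figure D3:**
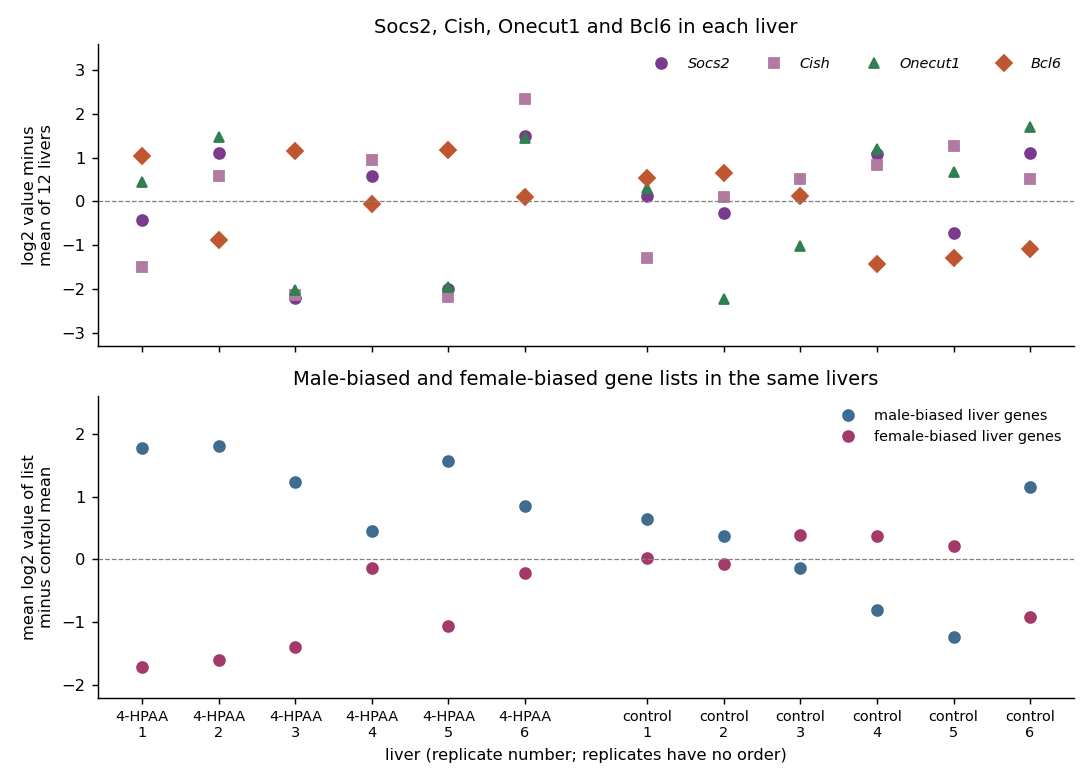
Upper plot, log2 values of Socs2, Cish, Onecut1 and Bcl6 in each liver minus the mean of all 12 livers; lower plot, mean log2 value of the male-biased and female-biased lists in each liver minus the control mean. 4-HPAA livers 3 and 5 are low in Socs2, Cish and Onecut1 and high in Bcl6; the male-biased list runs from 0.45 to 1.81 in 4-HPAA livers and from -1.23 to 1.16 in control livers.

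Over the 12 livers and 9590 other genes of mean value at least 100, the genes most like Socs2 were Mcl1 (r = 0.971), Arhgap29 (0.948), Tfdp2 (0.930), Nedd1 (0.924) and Wdr45b (0.918), on log2 values with group means removed. Those most like Igf1 were Ergic2 (r = 0.961), Rnf217 (0.955), Zfp715 (0.952), Med21 (0.951) and Zfp84 (0.946). These are descriptions of pattern, given with no test, and all share the same libraries. Among the members, Onecut1 stood at rank 138, Jak2 at rank 155, Cish at rank 212 and Igf1 at rank 602 in likeness to Socs2. In likeness to Igf1, Ghr stood at rank 423 and Socs2 at rank 1493. The remaining members stood further down in both rankings. Many genes outside the axis thus ran more closely with Socs2 and with Igf1 than the members did.

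Levels were compared between genes per kilobase of merged exons. Ghr and Igf1 were the most abundant members, at 1761.4 ± 354.4 and 1501.5 ± 278.9 per kilobase in 4-HPAA livers and 1745.5 ± 169.2 and 1512.7 ± 271.2 in control livers (SD, n = 6 each). Their spreads overlapped, and levels of different genes were not compared liver by liver. Igfals followed, at 960.3 ± 120.1 per kilobase in 4-HPAA livers and 813.3 ± 136.3 in control livers. Stat5b stood at 239.6 ± 19.6 per kilobase in 4-HPAA livers and 214.0 ± 27.4 in control livers. Onecut1 was at about that level, with a wide spread (184.6 ± 150.8 and 199.7 ± 150.4). Bcl6 was near Stat5b in 4-HPAA livers (211.4 ± 104.3) but lower than Stat5b in control livers (124.3 ± 76.2). Cish (114.7 ± 138.1 in 4-HPAA livers and 105.4 ± 49.8 in control livers) overlapped with Jak2 (74.3 ± 15.0 and 75.1 ± 4.17) and Stat5a (61.2 ± 15.2 and 57.0 ± 9.61). Socs2 was lowest on this scale, at 31.9 ± 26.7 per kilobase in 4-HPAA livers and 32.8 ± 16.6 in control livers. The merged exons joined those of all annotated transcripts of a gene, 9531 bases for Socs2 and 5030 for Jak2. The order of the genes depends on these lengths, and others were not tried.

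Other parts of the receptor pathway were read from a list of 28 tested signalling partners and brakes. Of these, 21 had positive differences and the list median was 0.05. At an unadjusted p under 0.05, 3 were higher and 1 was lower, beside backgrounds of 7.26% and 7.56%. Stat3, the transcription factor of the interleukin-6 signal, had a median of 3024 in 4-HPAA livers and 2156 in control livers, a difference of 0.44 ± 0.14 (limma, adjusted p = 0.200). Socs3, the inhibitor that STAT3 induces, had medians of 418 in 4-HPAA livers and 184 in control livers, a difference of 1.11 ± 0.37 (limma, adjusted p = 0.206). Sh2b2, an adaptor bound by JAK2, differed by 0.45 ± 0.21 (limma, adjusted p = 0.333). Prlr, the prolactin receptor, which also signals through JAK2 and STAT5, had medians of 1770.5 in 4-HPAA livers and 2718.5 in control livers, a difference of -0.55 ± 0.17 (limma, adjusted p = 0.200). Without 4-HPAA replicate 3, 5 genes of this list were higher and 2 lower at that unadjusted threshold, and without 4-HPAA replicate 2, 2 were higher. The backgrounds above belong to the main fit, and the shares over all genes without these libraries are not given here. Without 4-HPAA replicate 4 Stat3 passed (limma, adjusted p = 0.0304). With other libraries left out its adjusted p in limma reached 0.386.

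Of 11 tested IGF receptors, binding proteins and related genes, 3 were higher and 8 lower, with a median of -0.16. None was higher and 3 were lower at an unadjusted p under 0.05, beside backgrounds of 7.26% and 7.56% in the main fit. The lower count was 5 without control replicate 1 and with the replicate block, and 2 without control replicate 4. The shares over all genes under those settings are not given here. Igfbp3, the binding protein that joins IGF1 and the acid-labile subunit in plasma, had a lowest, median and highest value of 135, 195.5 and 469 in 4-HPAA livers and 240, 331 and 661 in control livers. Its difference was -0.82 ± 0.30 (limma, adjusted p = 0.238). Igfbp5 differed by -0.65 ± 0.25 (limma, adjusted p = 0.262), Igfbp6 by -0.70 ± 0.35 (limma, adjusted p = 0.372) and Htra1, a secreted protease that can cut IGF-binding proteins, by -1.12 ± 0.28 (limma, adjusted p = 0.144). Without 4-HPAA replicate 4, Htra1 (limma, adjusted p = 0.0308) and Igfbp3 (limma, adjusted p = 0.0455) passed. With other libraries left out, their adjusted p-values in limma reached 0.315 and 0.459. Markers of stellate cells moved with these genes: all 6 had negative differences, 4 of them at an unadjusted p under 0.05, and their summed value was 3184 to 6607 in 4-HPAA livers and 5437 to 7916 in control livers. Their part in the lower Igfbp3, Igfbp5, Igfbp6 and Htra1 was not tested, and in bulk tissue fewer cells of a type and less RNA per cell cannot be told apart.

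The genes that growth hormone secretion sets apart between male and female mouse liver showed larger differences than the axis itself. The lists were written with earlier results of these data known, and an increase of growth hormone-dependent and sex-biased genes was among those results, so they are no independent support. Of 29 tested male-biased genes, 28 had positive differences, and the median was 1.01, against -0.000922 over all genes. At an unadjusted p under 0.05, 23 were higher, beside a background of 7.26%, and 1 was lower. None passed after adjustment. The 4 of smallest p were Gstp1, a glutathione transferase, the complement genes C9 and C8a, and the glucuronosyltransferase Ugt2b38. Gstp1 had a lowest, median and highest value of 17883, 36169.5 and 51432 in 4-HPAA livers and 8366, 11747 and 16981 in control livers, so that its groups did not overlap. Its difference was 1.40 ± 0.24 (limma, adjusted p = 0.103). C9 differed by 0.92 ± 0.22 (limma, adjusted p = 0.142), C8a by 0.78 ± 0.21 (limma, adjusted p = 0.164) and Ugt2b38 by 2.52 ± 0.66 (limma, adjusted p = 0.161). Ces2e, named after its values were seen, was the exception at -0.22 ± 0.10 (limma, adjusted p = 0.301). When 4-HPAA replicate 4 was removed, Gstp1 (limma, adjusted p = 0.0154), C9 (0.0243), C8a (0.0396) and Ugt2b38 (0.0456) passed, and Gstp1 (0.0382) and C9 (0.0423) also passed with array weights. That liver had the lowest male-biased score of the 4-HPAA livers, 0.45. With other libraries left out, adjusted p-values in limma reached 0.273 for Gstp1, 0.297 for C9, 0.344 for C8a and 0.346 for Ugt2b38. Gstp1, Ugt2b38 and the 8 major urinary protein genes of the list have near-identical copies, so that single levels there are uncertain. Reads may be shared among such copies, so the 23 higher genes are not 23 separate observations.

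Female-biased genes ran the other way. Of 23 tested, 21 had negative differences, with a median of -0.58 (-1.07 over the genes with at least 50 in at least 6 libraries), and at an unadjusted p under 0.05 none was higher and 12 were lower, beside a background of 7.56%. Abcd2, a peroxisomal fatty acid transporter, had a lowest, median and highest value of 135, 186 and 905 in 4-HPAA livers and 636, 1085.5 and 1367 in control livers, a difference of -1.85 ± 0.47 (limma, adjusted p = 0.157). In 4 of the 6 4-HPAA livers Abcd2 lay far below all controls, while replicate 4 had 905 and replicate 6 had 696, inside the range of the controls. Cyp2a22 differed by -2.63 ± 0.78 (limma, adjusted p = 0.195), Slc22a27 by -2.21 ± 0.65 (limma, adjusted p = 0.193) and Fmo2, a flavin monooxygenase, by -1.07 ± 0.34 (limma, adjusted p = 0.203). The count of 12 lower genes dropped to 6 when 4-HPAA replicate 3 was removed, and to 7 when control replicate 3 was removed. The backgrounds of those fits are not given here. Abcd2 (limma, adjusted p = 0.0227) and Slc22a27 (limma, adjusted p = 0.0427) passed when 4-HPAA replicate 4 was removed. With other libraries left out, their adjusted p-values in limma reached 0.333 and 0.375. As a mean over the list, female-biased genes were at -1.72 to -0.14 in 4-HPAA livers and at -0.92 to 0.39 in control livers, on the log2 scale with the control mean set to 0.

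Liver by liver, the male-biased list ran with Bcl6 and against Cish in most livers, with exceptions, and this is given as a description with no test. 4-HPAA replicates 1, 3 and 5, with Bcl6 above and Cish below every control liver, had male-biased scores of 1.78, 1.23 and 1.56. 4-HPAA replicates 4 and 6, with the highest Cish of that group at 923 and 2402, had its lowest male-biased scores, 0.45 and 0.84. Among controls, replicates 1, 2 and 3, where Bcl6 was 1350, 1465 and 1019, had scores of 0.64, 0.38 and -0.14. Control replicates 4 and 5, where Bcl6 was 344 and 381, had scores of -0.80 and -1.23. The exceptions were 4-HPAA replicate 2, with the highest score of 1.81 beside a Bcl6 value of 507 and a Cish value of 714, and control replicate 6, with a score of 1.16 beside a Bcl6 value of 436. Socs2 and Onecut1 followed the score less closely: 4-HPAA replicate 2 had an Onecut1 value of 1505, and control replicate 5 had the lowest control Socs2 value, 144. Female-biased scores of replicates 1 to 6 were -1.72, -1.60, -1.39, -0.14, -1.05 and -0.22 in 4-HPAA livers. In control livers they were 0.02, -0.07, 0.39, 0.37, 0.21 and -0.92 and did not follow Bcl6.

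**Figure D4:**
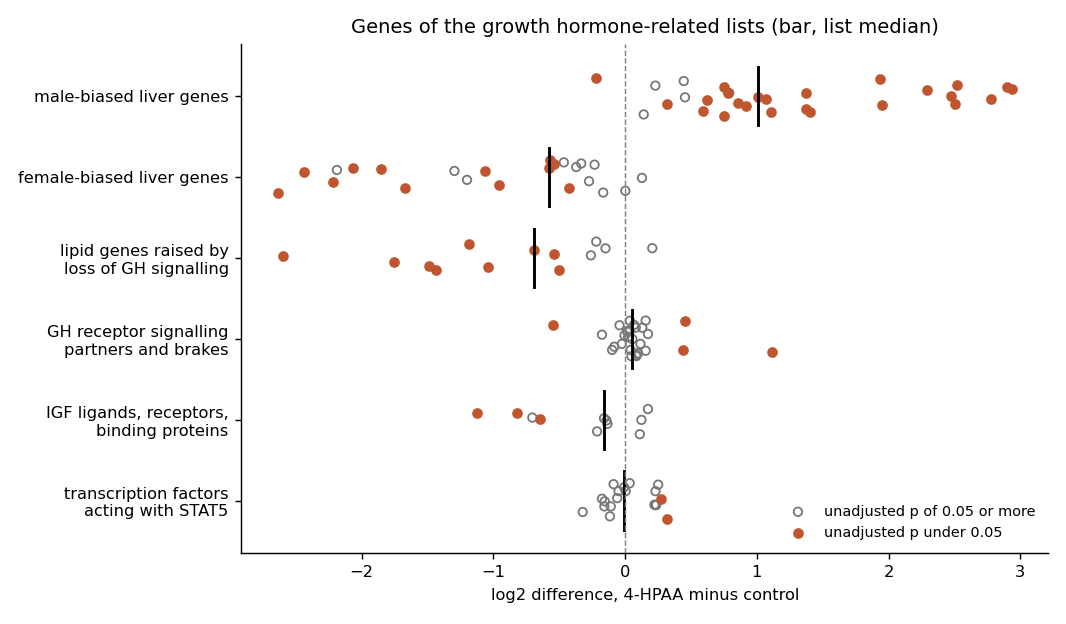
Log2 difference, 4-HPAA minus control, of each tested gene in 6 lists related to growth hormone; filled points have an unadjusted limma p under 0.05, open points do not, and black bars are list medians. Male-biased genes lie mostly to the right of 0 (median 1.01), female-biased genes (-0.58) and lipid genes (-0.69) to the left, and the 3 lists of signalling, IGF and transcription factor genes lie near 0.

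Of 13 tested lipid genes known in mice to increase when hepatic growth hormone signalling is lost, 12 had negative differences, with a median of -0.69, and 9 were lower at an unadjusted p under 0.05, beside a background of 7.56%. Those of smallest p were Pparg, a fat-storage transcription factor (-0.69 ± 0.19), the desaturase Scd1 (-1.49 ± 0.40), the fatty acid transporter Cd36 (-1.19 ± 0.38) and Mogat1, an enzyme of triglyceride synthesis (-1.04 ± 0.35), with limma adjusted p-values of 0.161 to 0.206. Scd1 passed without 4-HPAA replicate 4 (limma, adjusted p = 0.0346), and its adjusted p reached 0.346 in limma with other libraries left out. Cfd, the one adipocyte marker measured, moved with these genes: it differed by -2.65 ± 0.73 (limma, adjusted p = 0.183), the lowest difference of the 12720 genes. Its part in the lower lipid genes was not tested. Of 19 transcription factors that act beside STAT5 in hepatocytes, 9 had positive differences, with a median of -0.01. At an unadjusted p under 0.05, 2 were higher and 0 were lower, beside backgrounds of 7.26% and 7.56%. The higher count was 4 without 4-HPAA replicate 3 and 6 with array weights. Those backgrounds belong to the main fit, and the shares over all genes under these other settings are not given here. Cux1, a homeodomain transcription factor, differed by 0.27 ± 0.09 (limma, adjusted p = 0.200), and Hnf4a, a hepatocyte identity factor, by 0.23 ± 0.13 (limma, adjusted p = 0.408).

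Hepatocyte markers were abundant in all livers, with a summed value of 1867122 to 2505327 in 4-HPAA livers and 2217715 to 2739529 in control livers. Of the 6, 3 had positive differences. At an unadjusted p under 0.05 in limma, 2 were higher and 1 was lower, albumin (Alb, -0.38 ± 0.10), beside backgrounds of 7.26% and 7.56% of all genes. Markers of other cell types were far lower: the 5 cholangiocyte markers summed to 1064 to 1876 in 4-HPAA livers and 1037 to 1715 in control livers, and the 4 measured B and T cell markers to 23 to 56 in 4-HPAA livers and 29 to 94 in control livers. The 7 Kupffer cell and macrophage markers summed to 2564 to 4764 in 4-HPAA livers and 1804 to 6262 in control livers, with 3 positive and 4 negative differences and none at an unadjusted p under 0.05. Of the 6 endothelial markers 5 had negative differences and 1 was lower at that threshold. Cfd was at 20 to 450 in 4-HPAA livers and 205 to 1133 in control livers. The part of these markers in the levels of the 10 genes was not tested.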

How the data were processed

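Strand-specific TruSeq libraries of mRNA from 12 livers were sequenced on an Illumina NovaSeq, per the labels' protocols. STAR, HTSeq, cutadapt, FastQC 0.11.9, edgeR, DESeq2 1.28.1 and the build GRCm38 are listed in the submitters' processing notes, with no role (annotation and strand setting: not given in the sources used here). Values deposited by the authors are whole numbers handled as a score, that is, counts of reads divided by a library factor and then rounded, as read from the values (low whole numbers missing or doubled at regular spacing, median-of-ratio factors of 1.00 to 1.01). The smallest value is 2, so genes without reads are not analysed here. GENCODE M21 (GRCm38) named 13203 of 13267 identifiers.

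Members and gene lists were chosen with earlier results of these data known. limma 3.58.1 in R 4.3.3 (trend and robust settings) was fitted to log2(value + 1) of all 12 libraries, for genes of at least 10 in at least 6 libraries, with Benjamini-Hochberg adjustment over all 12720 genes. The log2 scale with a pseudocount of 1 understates changes of low genes. No scaling was added. Named genes were the members, up to 4 genes of smallest p per list, and the 5 genes most like Igf1 and Socs2; 2 list genes are not reported here. The limma and permutation scripts were tested on simulated data. Of 30 pairs of libraries within groups, none agreed within sampling noise (chi-square per gene 17.9 to 119.9). Same-numbered libraries deviated together only in part (correlations -0.18 to 0.28), so the numbers were not taken as pairs. Alternatives were other pseudocounts, filters, scalings, weights, variance settings, an exact permutation test, a replicate block and each library left out. Figures used matplotlib 3.10.9.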

Additional observations from a re-analysis of the deposited data

Results flagged for a closer look

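Of 64 sets of 6 livers examined for the 10 axis genes and 22 genes named from the lists, 10 had an end value whose gap to the next, divided by the range of the group, exceeded Dixon's 95% critical value. Chance flags about 1 in 20 such sets where values are normally distributed. The values were used here without the log2 step, and the rate for them was not tested. Among the axis genes, 4 of 5 such values belonged to 4-HPAA replicate 3. Ghr was 9434 there, against 16676 in the next 4-HPAA liver, and Igf1 was 9576, against 14824. Stat5a was 645 in the same liver, with 425 next, and Igfals was 3791, with 3014 next. Cish was 2402 in 4-HPAA replicate 6, with 923 next.

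Among list genes, Htra1 was 50 in 4-HPAA replicate 4 (next 27), and Igfbp3 was 469 in the same liver (next 234). Ugt2b38 was 759 in 4-HPAA replicate 2 (next 317) and 185 in control replicate 6 (next 61), and Stat3 was 2696 in control replicate 3 (next 2271).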

How the results depend on the processing

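The count of genes past an adjusted p of 0.05 was 0 in limma and with the exact permutation test, 139 with array weights, 11 with the replicate block, and 0 to 193 with 1 library left out, the highest without 4-HPAA replicate 4. The smallest possible permutation p, 0.00216, leaves the exact test little room for adjusted calls. The count was 5 without control replicate 1. The cause was not tested. No axis gene passed after adjustment under any of the 21 alternatives. The number of members higher at an unadjusted p under 0.05 was 1 in the report and 0 with median-of-ratio size factors, with scaling to library totals, without limma's trend and robust settings and with the exact permutation test. It was 0 to 2 with 1 library left out, reaching 2 without control replicate 1 (Igfals and Bcl6) and without control replicate 2 (Stat5b and Bcl6). Members lower numbered 0 throughout.

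With array weights, Ghr turned to 0.10, Jak2 to 0.0297, Stat5a to -0.0720, Igf1 to 0.13 and Onecut1 to 0.48. With 1 library left out, Ghr ranged from -0.0490 to 0.13, Jak2 from -0.11 to 0.0620 and Stat5a from -0.0303 to 0.17. Igf1 ranged from -0.0761 to 0.11 and Onecut1 from -0.67 to 0.19, so the signs of these genes are not settled. Igfals, Stat5b and Bcl6 stayed positive and Socs2 and Cish negative under all 21 alternatives. The alternatives reuse the same livers, so a constant sign does not settle the direction. The main-fit intervals of Stat5b (-0.03 to 0.36), Bcl6 (-0.18 to 1.86), Socs2 (-1.89 to 0.92) and Cish (-2.37 to 1.07) spanned both signs. That of Igfals was positive, from 0.00312 to 0.49. The female-biased count was 6 to 17 and the male-biased count 19 to 25 with 1 library left out. The shares of all genes at an unadjusted p under 0.05 in these fits are not given here. With the 2 farthest livers left out, r was 0.742 (Ghr and Igf1), 0.448 (Ghr and Igfals, a reversal), 0.609 (Socs2 and Cish), 0.551 (Socs2 and Igf1), -0.496 (Bcl6 and Socs2) and -0.694 (Onecut1 and Bcl6). Without 4-HPAA replicate 3, a choice made after seeing the data, these were 0.551, 0.425, 0.710, 0.475, -0.586 and -0.759, in the same order. With the replicate block Igfbp3 passed at -0.82 (limma, adjusted p = 0.0497), and no other named gene gained or lost an adjusted call under the block. Without 4-HPAA replicate 4, 10 of the genes named from the lists passed after adjustment, and with array weights 2 did. Replicate numbers were not taken to pair the livers. Depth limits low genes most.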
